A study of Mus musculus with 12 samples.

Results

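The insulin-like growth factor (IGF) binding proteins, ligands and receptors were followed across cultured adult mouse dentate gyrus (DG) neural stem cells (NSCs) treated with glutamate, with an inhibitor of glutamate transport, with both or with neither. The group holds 9 genes of the 50600 entries in the expression table: the binding proteins Igfbp2, Igfbp3, Igfbp4, Igfbp5 and Igfbp6, the ligands Igf1 and Igf2, and the receptors Igf1r and Igf2r. They were taken by gene symbol, and the family was picked because Igfbp5 was seen to be higher with the inhibitor. The Igfbp5 difference with the inhibitor is therefore given as a description, with no test, and the tests below are those of its relatives and of glutamate.

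The cells were wild type NSCs of the C57BL/6J strain, grown out of pooled DG tissue of mice aged 6 weeks and kept as an adherent monolayer on poly-D-lysine and laminin. The methods describe a line from male and a line from female mice without saying which gave the RNA. Bulk RNA-seq was made from 12 wells at passage 4, plated at 75000 cells each, in 4 groups of 3 wells. TFBTBOA-Glut cells received 1 µM TFB-TBOA, which blocks glutamate uptake by the excitatory amino acid transporters (EAATs), for 15 min and then 100 µM glutamate for 48 h. TFBTBOA-Veh cells received the inhibitor and then vehicle, Veh-Glut cells vehicle and then glutamate, and Veh-Veh cells vehicle at both steps. All 4 groups shared the B27, GlutaMAX, EGF and FGF2 of the medium. The wells are the replicates, so p-values measure the spread between wells, which may be technical.

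IGF1 and IGF2 are secreted growth factors that act through the tyrosine kinase receptor IGF1R, while IGF2R, the cation-independent mannose-6-phosphate receptor, takes IGF2 to the lysosome and has no kinase of its own. The IGF binding proteins are secreted carriers that hold the ligands outside the cell and can either withhold them from the receptor or deliver them to it. In the adult hippocampus IGF1 is known to act on NSCs and their progeny. B27 contains insulin, which at high levels also engages the IGF1 receptor.

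Normalized counts summed to between 14900486 and 15411418 per library, and whole reads recovered in 10 of the libraries totalled 13064545 to 18372691. The cell type of the label was checked on its markers. Nes, Slc1a3, Fabp7 and Vim averaged between 23136 and 30991 normalized counts over the 12 libraries, while Sox2 averaged 189 and Hes5 19.7. Genes that also mark astrocytes and the oligodendrocyte lineage were well expressed. The 5 astrocyte genes summed to 6093 to 6279 in TFBTBOA-Glut against 6731 to 7333 in Veh-Glut, and to 6049 to 6629.8 in TFBTBOA-Veh against 6027 to 6619 in Veh-Veh, mostly Aldh1l1 and Gja1, with Aqp4 at 0 to 9.58. Of these, S100b was lower without overlap in both inhibitor comparisons, by log2 differences of -0.92 and -0.84 (limma adjusted p = 0.0719 and 0.152). Over all genes, 12% and 7.74% were lower without overlap there. The other tested astrocyte genes were mixed: Gja1 differed by -0.22 and -0.10, Aldh1l1 by -0.11 and 0.06, and Gfap by 0.09 and 0.68. The 5 oligodendrocyte lineage genes summed to 1131 to 2747 in TFBTBOA-Glut against 978 to 1554 in Veh-Glut, and to 1270.2 to 1662 in TFBTBOA-Veh against 1413 to 1701 in Veh-Veh, mostly Olig2, with Sox10 and Mbp averaging under 10. Markers of vessels, meninges and microglia were low. Summed over 7 genes, those of mural cells and meningeal fibroblasts reached 27.8 to 62.9 in TFBTBOA-Glut, 25.0 to 56.8 in TFBTBOA-Veh, 42.6 to 52.7 in Veh-Glut and 15.9 to 46.1 in Veh-Veh. The 4 endothelial genes summed to 25.9 to 52.8 in TFBTBOA-Glut against 1.96 to 14.8 in Veh-Glut, and to 9.84 to 23.96 in TFBTBOA-Veh against 1.06 to 34.7 in Veh-Veh, with Cldn5 and Cdh5 at or near 0. The 4 microglial genes summed to 18.8 to 51.6 in TFBTBOA-Glut against 11.8 to 24.1 in Veh-Glut, and to 20.8 to 45.9 in TFBTBOA-Veh against 14.8 to 46.1 in Veh-Veh, mostly P2ry12, with Cx3cr1 listed at 0 in all 12 libraries. The 6 neuroblast and neuron genes summed to 508 to 644 in TFBTBOA-Glut against 408 to 508 in Veh-Glut, and to 650 to 719 in TFBTBOA-Veh against 426 to 574 in Veh-Veh. These sums were mostly Prox1, with Dcx and Neurod1 averaging under 10. Prox1 had log2 differences of 0.49 and 0.36 in the inhibitor comparisons with and without glutamate, and Eomes of -1.01 and 1.07. Means of Neurod1 were lower with the inhibitor, at 4.73 in TFBTBOA-Glut against 12.1 in Veh-Glut and 2.07 in TFBTBOA-Veh against 15.4 in Veh-Veh. None of the tested markers was called higher or lower with the inhibitor, and their part in the differences below was not tested.

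The members sit at separate places in the mouse genome, except for a close pair. In GRCm38 (GENCODE M21), Igfbp5 lies on the minus strand of chr1:72857932-72874884 and Igfbp2 on the plus strand of chr1:72824503-72852474, so that they point at each other with 5457 bp between their ends. Igfbp3 (chr11:7206086-7213923, minus strand) forms a like pair with Igfbp1, which was listed at 0 in all 12 libraries. Igfbp4 lies at chr11:99041244-99054392, Igf1r at chr7:67952827-68233668 and Igf2r at chr17:12682406-12769664. The starts of Igfbp5, its neighbour Igfbp2 and Igfbp4 are shown to set the gene the family was chosen on beside its expressed neighbour and a further abundant carrier. These are the 250 bases before the RefSeq start (GRCm38.p6), with capitals for the motifs searched on both strands.
Igfbp5 (chr1:72874866-72875115, minus strand): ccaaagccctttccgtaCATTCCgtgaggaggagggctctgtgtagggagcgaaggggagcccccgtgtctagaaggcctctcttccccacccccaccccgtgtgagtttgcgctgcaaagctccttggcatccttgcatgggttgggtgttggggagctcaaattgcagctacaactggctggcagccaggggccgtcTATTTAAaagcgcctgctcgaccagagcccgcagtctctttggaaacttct
Igfbp2 (chr1:72824230-72824479, plus strand): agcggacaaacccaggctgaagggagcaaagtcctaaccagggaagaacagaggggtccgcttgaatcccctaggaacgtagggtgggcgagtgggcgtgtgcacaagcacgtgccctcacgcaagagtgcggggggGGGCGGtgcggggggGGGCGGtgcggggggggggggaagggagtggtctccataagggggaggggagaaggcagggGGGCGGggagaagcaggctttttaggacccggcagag
Igfbp4 (chr11:99040994-99041243, plus strand): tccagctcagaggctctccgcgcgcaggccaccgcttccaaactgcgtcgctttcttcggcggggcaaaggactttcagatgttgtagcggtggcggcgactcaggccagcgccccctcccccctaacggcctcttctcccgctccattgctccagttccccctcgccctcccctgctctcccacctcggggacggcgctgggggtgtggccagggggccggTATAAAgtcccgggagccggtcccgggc

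The Igfbp5 start carried TATTTAA with its first base at -51. It also carried CATTCC, which reads GGAATG on the other strand, at -233. GGAATG is the core of the site bound by TEAD factors. TATTTAA was found in 4.16% and GGAATG in 12.6% of 32536 distinct windows of this length in the RefSeq table. The Igfbp2 start carried GGGCGG, the GC box, 3 times, at -113, -98 and -37. The Igfbp4 start carried TATAAA at -28. GGGCGG was found in 33.0% and TATAAA in 12.3% of these windows. GGAATG was also matched before starts of Igf2, at -218, -112, -180 and -163, with GGGCGG at -17, -100 and -85. The window of Igfbp6 held TATAAA at -148. The windows of Igf1r and Igf2r held 2 and 3 GGGCGG matches, and those of Igfbp3 and Igf1 held none of the 4 motifs. The motifs do not overlap each other in these windows, and a match describes letters, not binding.

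Levels of different genes were compared as normalized counts per kb of exon. Averaged over the 12 libraries, Igfbp2 stood first at 21849 normalized counts per kb, ahead of Igfbp4 at 3298 and Igfbp3 at 2646. Igfbp5 averaged 175, Igf2r 109 and Igf1r 59.3 normalized counts per kb. Igfbp6, Igf2 and Igf1 averaged 2.68, 0.374 and 0.279. The lowest Igfbp2 library, at 18146 per kb, lay above every library of the other members. The ranges of Igfbp4 (2917 to 3581 per kb) and Igfbp3 (1730 to 4537 per kb) overlapped. Within libraries, Igfbp4 was above Igfbp3 except in TFBTBOA-Glut replicates 1 (3372 against 3524 per kb) and 2 (3174 against 4537 per kb). Transcripts of 4 carriers and both receptors were thus well measured in these NSCs, and those of both ligands lay near the limit of detection.

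**Figure D1:**
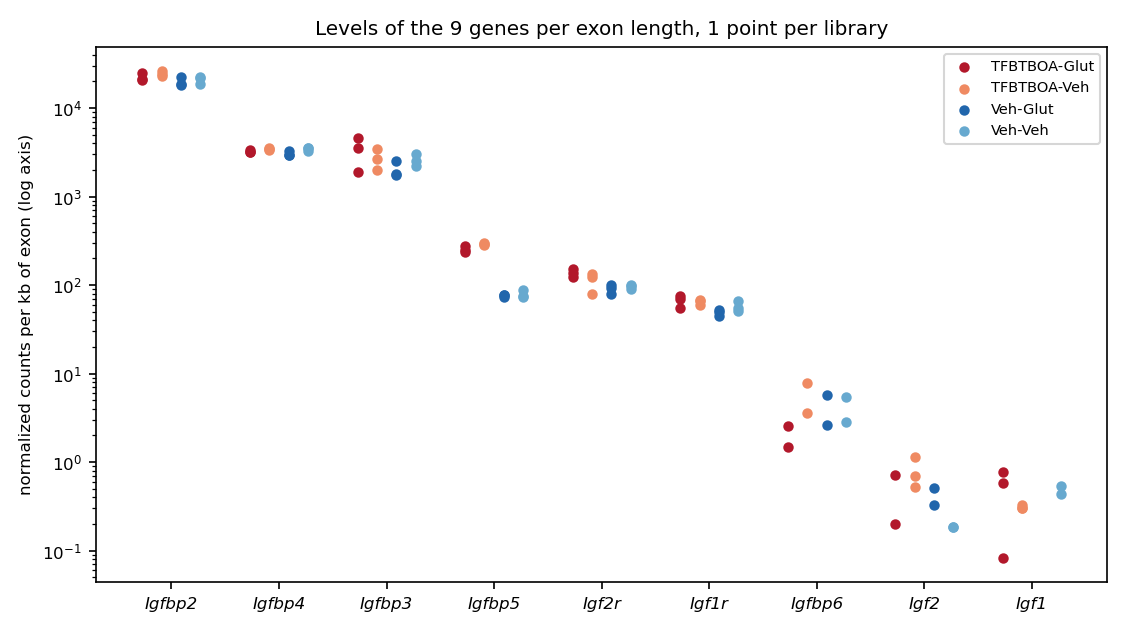
Normalized counts per kb of exon (log axis) of the 9 members, a point for each library, coloured by treatment group; libraries listed at 0 are left out. Igfbp2 lies above all others, Igfbp5 alone splits into an upper set of libraries with the inhibitor and a lower set without it, and the ligands lie at the bottom.

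Igfbp5, a carrier that also binds the extracellular matrix, had 1504, 1402 and 1668 normalized counts in TFBTBOA-Glut, against 467, 467 and 439 in Veh-Glut. It had 1692, 1775 and 1735 in TFBTBOA-Veh, against 444, 531 and 457 in Veh-Veh. The 6 libraries with the inhibitor thus lay between 1402 and 1775 and the 6 without it between 439 and 531, with no overlap. Over all genes tested, 2.55% were higher without overlap in that 6 against 6 split and 1.73% lower, and since Igfbp5 chose the family nothing is read from its place among them. The log2 difference was 1.73 (SE 0.111, a 3.32-fold difference) for TFBTBOA-Glut against Veh-Glut and 1.86 (SE 0.104, 3.64-fold) for TFBTBOA-Veh against Veh-Veh. By size it ranked 132 and 68 among 14266 genes. In these lysates of many cells, a change in the share of cells that express a gene and a change in RNA per cell cannot be told apart.

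Per kb, the place of Igfbp5 in the family differed with the inhibitor. In the 6 libraries with it, Igfbp5 stood at 233 to 296 normalized counts per kb and Igf2r at 80.1 to 151. In the 6 libraries without it, Igfbp5 stood at 73.1 to 88.5 per kb and Igf2r at 79.7 to 101. These ranges overlap, but within each of these 6 libraries Igf2r was above Igfbp5. Igf1r was the lowest of the 3, at 55.4 to 74.8 per kb with the inhibitor and 45.0 to 65.8 without it.

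Against the whole pool of binding protein transcripts, also per kb, Igfbp5 remained a small part. Igfbp2 to Igfbp6 summed to 29122 ± 2901 normalized counts per kb in TFBTBOA-Glut and 24833 ± 3061 in Veh-Glut, and to 30897 ± 2244 in TFBTBOA-Veh and 27028 ± 2395 in Veh-Veh (SD, n = 3 each). Igfbp5 made up 0.880% ± 0.145 of that sum in TFBTBOA-Glut against 0.310% ± 0.0327 in Veh-Glut. It made up 0.938% ± 0.0810 in TFBTBOA-Veh against 0.295% ± 0.0311 in Veh-Veh (SD, n = 3 each). Igfbp2 held between 76.6% and 79.3% of the sum in each group mean, so the pool was mostly Igfbp2 under every treatment.

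**Figure D2:**
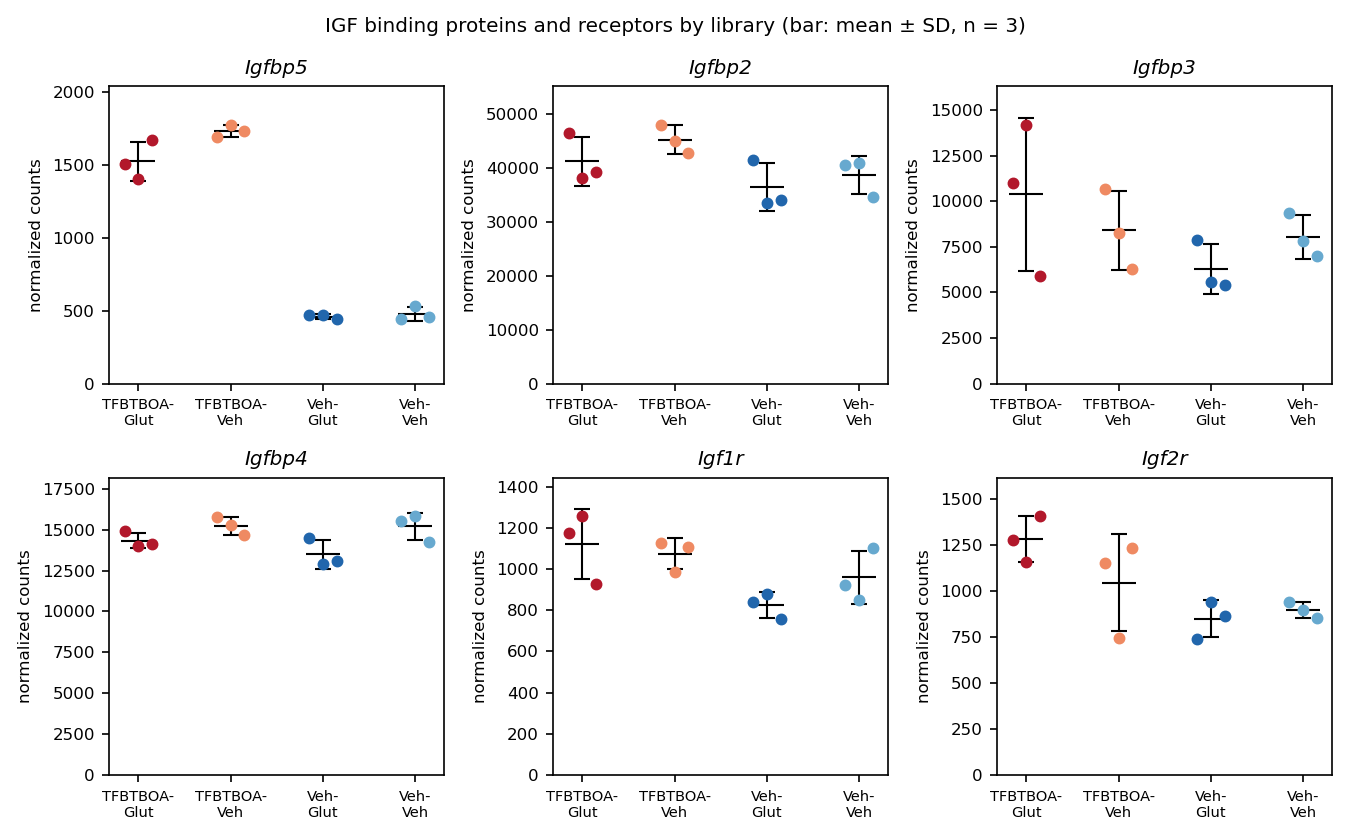
Normalized counts of the 6 members that passed the filter in every library (points), with the mean and SD of each treatment group (bars, n = 3), on a separate axis from 0 for each gene. Igfbp5 sits at 1402 to 1775 with the inhibitor and 439 to 531 without it. Igf1r and Igf2r are higher without overlap in TFBTBOA-Glut against Veh-Glut alone, and Igfbp2 in TFBTBOA-Veh against Veh-Veh alone. Igfbp3 and Igfbp4 overlap in both.

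Whether the rest of the family moved with the inhibitor was asked first in the presence of glutamate. Of the 8 members other than Igfbp5, 5 passed the filter of a mean of 10 normalized counts, and 1 of these was called higher and 0 lower in TFBTBOA-Glut cells when set against Veh-Glut cells. Over all 14266 genes tested, 1.23% were called higher and 0.953% lower. The 5 log2 differences were all positive, with a median of 0.43 against 0.0095 over all genes. The groups did not overlap for 2 of the 5, where 11.2% of all genes were higher without overlap. At an unadjusted p under 0.05 there were 3 of 5, where 18.3% of all genes were.

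The member called was Igf2r, the scavenger of IGF2 and sorting receptor for lysosomal enzymes. Igf2r had 1279, 1158 and 1406 normalized counts in TFBTBOA-Glut, against 741, 942 and 862 in Veh-Glut. All 3 TFBTBOA-Glut libraries lay above all 3 Veh-Glut libraries. The log2 difference was 0.60 (SE 0.122, 1.51-fold, 95% interval 0.33 to 0.86), with a limma adjusted p of 0.0290. This call rests on nearly every library: leaving out any except TFBTBOA-Glut replicate 2 raised the adjusted p to between 0.0525 and 0.136, with the log2 difference between 0.50 and 0.67. Without the filter on low genes the adjusted p was 0.212. Airn, the noncoding RNA that overlaps Igf2r on the opposite strand, averaged 27.6 normalized counts (13.1 to 46.9) beside 1018 for Igf2r. The library kit does not mark strand, so reads from where they overlap cannot be assigned to either.

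Igf1r, the signalling receptor, had 1177, 1256 and 929.6 normalized counts in TFBTBOA-Glut, against 842, 879 and 756 in Veh-Glut. The groups did not overlap, but the log2 difference of 0.43 (SE 0.130) did not pass, with a limma adjusted p of 0.111. DESeq2 on the recovered reads gave 0.44 with an adjusted p of 0.0318, and limma without TFBTBOA-Glut replicate 3 gave 0.56 with an adjusted p of 0.0390.

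Igfbp3, the main carrier of IGFs in serum, had the highest coefficient of variation of the 6 tested members in each of the 4 groups. It had 11029.7, 14199.9 and 5904 normalized counts in TFBTBOA-Glut, against 7889.7, 5589 and 5415 in Veh-Glut. The TFBTBOA-Glut libraries spread over more than the distance between the group means, at 40.3% of their mean as SD, and overlapped those of Veh-Glut. The log2 difference was 0.65 (SE 0.252, limma adjusted p = 0.199). Without TFBTBOA-Glut replicate 3, the lowest library of its group, it was 1.01 with an adjusted p of 0.00718. Replicate 3 was the lowest Igfbp3 library in each of the 4 groups.

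Igfbp2, the most abundant carrier, had 46404, 38032 and 39159.9 normalized counts in TFBTBOA-Glut, against 41512, 33516 and 34052 in Veh-Glut. The groups overlapped, with a log2 difference of 0.18 (SE 0.0945, 95% interval -0.03 to 0.39, limma adjusted p = 0.334). Igfbp4, a carrier that mostly restrains IGF action, had 14891, 14017 and 14092 in TFBTBOA-Glut, against 14517, 12879.6 and 13085 in Veh-Glut. Its log2 difference of 0.09 (SE 0.0688, 95% interval -0.06 to 0.24, limma adjusted p = 0.525) leaves room for a change of at most 1.18-fold upward.

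Without added glutamate, none of the 5 tested relatives of Igfbp5 was called by limma between TFBTBOA-Veh and Veh-Veh, where 0.925% of all genes were called higher and 0.105% lower. At an unadjusted p under 0.05 there was 1 of 5, where 11.4% of all genes were. All 5 differences were positive, with a median of 0.17 against -0.0023 over all genes. Igfbp2 had 47954, 44939.6 and 42711 normalized counts in TFBTBOA-Veh, against 40510.4, 40875 and 34586 in Veh-Veh. These groups did not overlap, as was so for 9.03% of all genes in this direction, and the log2 difference was 0.23 (SE 0.0624, limma unadjusted p = 0.00333, adjusted p = 0.140). With the replicate number as a block, limma gave Igfbp2 an adjusted p of 0.00347 here.

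The receptors overlapped in this comparison. Igf2r had 1153, 746 and 1236 normalized counts in TFBTBOA-Veh, against 939, 898 and 852 in Veh-Veh (log2 difference 0.19, SE 0.162, limma adjusted p = 0.723). TFBTBOA-Veh replicate 2 was the low library, and without it the log2 difference was 0.41 (limma adjusted p = 0.154). Igf1r had 1128, 988 and 1106 in TFBTBOA-Veh, against 924, 852 and 1104 in Veh-Veh (log2 difference 0.17, SE 0.115, limma adjusted p = 0.632). Igfbp3 had 10650.2, 8272 and 6274 normalized counts in TFBTBOA-Veh, against 9358, 7805 and 6999.7 in Veh-Veh, with a log2 difference of 0.04 (SE 0.154, limma adjusted p = 0.962). Igfbp4 was the closest to equal, at 15745, 15261 and 14679 in TFBTBOA-Veh and 15543, 15815 and 14257 in Veh-Veh. Its log2 difference was 0.0031 with a 95% interval of -0.11 to 0.12, and limma gave an adjusted p of 0.994.

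**Figure D3:**
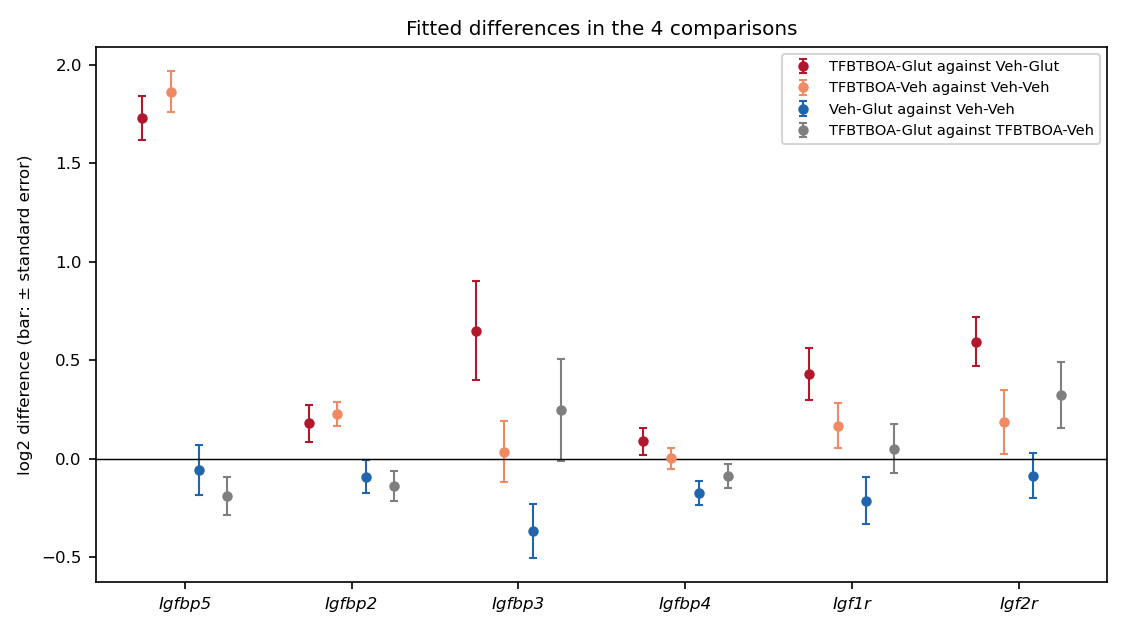
Log2 differences (points) with their standard errors (bars) of the 6 members that passed the filter, in the 4 pairwise comparisons. Igfbp5 stands at 1.73 and 1.86 in the comparisons of the inhibitor, Igf2r at 0.60 and 0.19, and all 6 members lie below 0 for glutamate without the inhibitor.

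Glutamate by itself was next set against vehicle. In Veh-Glut against Veh-Veh, 0 of the 6 tested members were called by limma in either direction, where 0.133% of all genes were called higher and 0.028% lower. At an unadjusted p under 0.05 there were 2 of 6, where 9.51% of all genes were, and edgeR and DESeq2 on the recovered reads also called 0. All 6 log2 differences were below 0, with a median of -0.13 against 7.8e-05 over all genes. The groups overlapped for all 6, where 14.4% of all genes had groups without overlap. This comparison shares the Veh-Glut libraries with that of TFBTBOA-Glut against Veh-Glut.

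Igfbp5, at 467, 467 and 439 normalized counts in Veh-Glut and 444, 531 and 457 in Veh-Veh, had a log2 difference of -0.06 (SE 0.125, limma adjusted p = 0.911) for glutamate. The 95% interval of -0.33 to 0.22 bounds it to a fold between 0.796 and 1.16. Igfbp3 (-0.37, SE 0.137, adjusted p = 0.445) and Igfbp4 (-0.17, SE 0.0621, adjusted p = 0.432) were the members with an unadjusted p under 0.05. Without Veh-Glut replicate 1, the Igfbp3 difference was -0.54 with a limma adjusted p of 0.0305. Igf1r (-0.21, SE 0.120), Igfbp2 (-0.09, SE 0.0836) and Igf2r (-0.08, SE 0.114) had adjusted p-values of 0.609, 0.764 and 0.846.

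In the presence of the inhibitor, glutamate moved no member past the threshold either. In TFBTBOA-Glut against TFBTBOA-Veh, limma called 0 of 6 members, as it called 0% of all genes in each direction, and 0 members had an unadjusted p under 0.05. Count tests were run in neither comparison with TFBTBOA-Veh, since whole reads were not recovered for 2 of its libraries. Igfbp5 was lower in each TFBTBOA-Glut library (1402 to 1668 normalized counts) than in any TFBTBOA-Veh library (1692 to 1775), and was the sole member without overlap, where 4.74% of all genes were lower without overlap. Its log2 difference was -0.19 (SE 0.0947, 95% interval -0.40 to 0.02, limma adjusted p = 1.00). The other differences ran between -0.14 for Igfbp2 and 0.32 for Igf2r.

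The difference between the glutamate effects with and without the inhibitor was tested over all 12 libraries, and limma called 0 of the 6 members, where 0.014% of all genes were called. None had an unadjusted p under 0.05. For Igfbp5 this difference was -0.13 (SE 0.142, 95% interval -0.44 to 0.17, adjusted p = 0.841). For Igf2r it was 0.41 (SE 0.221, adjusted p = 0.725), so the call with glutamate present and its lack without glutamate are not shown to differ. Igfbp3 had the widest interval, at 0.61 with a range of -0.14 to 1.37 (adjusted p = 0.726). Igf1r (0.26), Igfbp4 (0.09) and Igfbp2 (-0.05) had adjusted p-values of 0.756, 0.825 and 0.944.

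The ligands and Igfbp6 lay under the filter and had no part in the counts above. Igf1 was listed at 0.817, 5.74 and 7.68 normalized counts in TFBTBOA-Glut, at 3.28, 2.99 and 3.02 in TFBTBOA-Veh, at 0 in all 3 libraries of Veh-Glut, and at 4.35, 0 and 5.26 in Veh-Veh. In recovered reads this was 1, 5 and 8 in TFBTBOA-Glut against 0, 0 and 0 in Veh-Glut, and a count of 0 allows up to 3 reads in a library. Igf2 reached at most 6.56 normalized counts and was above 0 in 9 of 12 libraries. Igfbp6, a carrier that prefers IGF2, reached 8.74 and was above 0 in 8. Over the 10 libraries with recovered reads, Igf1 had 27 reads, Igf2 had 19 and Igfbp6 had 32. With the filter left out, their limma adjusted p-values were 0.348 to 1.00 over the 5 tests, and no difference in them was detectable at this depth. Igf1 and Igf2 overlap antisense genes, and Igf2 also overlaps Gm49394 on its own strand, so that even these few reads are not certain to be theirs.

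Genes around the family were counted in 5 lists, which were chosen with earlier results of these data known. Over all genes, 1.23% were called higher and 0.953% lower in TFBTBOA-Glut against Veh-Glut, with a median log2 difference of 0.0095. In TFBTBOA-Veh against Veh-Veh, 0.925% were called higher and 0.105% lower, with a median of -0.0023. Among 12 other secreted regulators of IGFs, 8 passed the filter, and 1 was called higher and 0 lower both in TFBTBOA-Glut against Veh-Glut and in TFBTBOA-Veh against Veh-Veh, with median log2 differences of 0.49 and 0.33. The gene was Adamts1, a secreted metalloprotease. Adamts1 had 1186, 903 and 1189.8 normalized counts in TFBTBOA-Glut, against 449.8, 570.3 and 534 in Veh-Glut (log2 difference 1.07, SE 0.143, limma adjusted p = 0.00372). It had 1024, 824 and 1352 in TFBTBOA-Veh, against 526, 531 and 499.98 in Veh-Veh (1.01, SE 0.156, adjusted p = 0.0111). As with Igfbp5, every library with the inhibitor was above every library without it, which held for 2.55% of all genes tested. Igfbp7, a low-affinity relative of the binding proteins, had means of 77.3 in TFBTBOA-Glut and 40.8 in Veh-Glut, and of 77.7 in TFBTBOA-Veh and 32.2 in Veh-Veh. Its log2 differences of 0.93 (SE 0.324, adjusted p = 0.159) and 1.29 (SE 0.347, adjusted p = 0.131) did not pass; it was named after its values were seen. Igfbp1, Igfals, Pappa and Pappa2 were under the filter. Pappa and Pappa2 are among the genes of proteases that cut IGF binding proteins, IGFBP5 included.

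Of 11 receptors and adaptors downstream of insulin and IGF1, 9 were tested. Irs2, an adaptor that couples both receptors to PI3K, was called higher in TFBTBOA-Glut, at 1154, 1136 and 1083 normalized counts, against 896, 706 and 773 in Veh-Glut (log2 difference 0.51, SE 0.115, limma adjusted p = 0.0455), and none was called lower. In TFBTBOA-Veh against Veh-Veh its difference was 0.23 (adjusted p = 0.415), and 0 of the 9 were called. For glutamate alone, in Veh-Glut against Veh-Veh, the Irs2 difference was -0.25 (limma adjusted p = 0.525). The difference between the glutamate effects was 0.28 for Irs2 (limma adjusted p = 0.725). Insrr and Irs4 were under the filter. Of 20 genes of the PI3K, AKT, FOXO and mTOR arm, 19 were tested, with a median log2 difference of -0.0040 in TFBTBOA-Glut against Veh-Glut. The 1 call there was Eif4ebp1, a repressor of cap-dependent translation, which was lower at 1633, 1677 and 1499 normalized counts in TFBTBOA-Glut, against 2991, 2813 and 2491 in Veh-Glut (-0.78, SE 0.0970, adjusted p = 0.00297). Its difference was -0.22 (adjusted p = 0.492) in TFBTBOA-Veh against Veh-Veh and 0.55 (adjusted p = 0.129) in Veh-Glut against Veh-Veh, and the interaction was -0.56 (adjusted p = 0.405). Foxo4 was under the filter.

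Among 11 IGF2 RNA-binding proteins and imprinted genes, 8 were tested and Mest, a paternally expressed imprinted gene, was called higher in TFBTBOA-Glut, at 21694, 21302 and 19971 normalized counts, against 15905, 14427 and 14979 in Veh-Glut (log2 difference 0.47, SE 0.0654, limma adjusted p = 0.00430). In TFBTBOA-Veh against Veh-Veh the Mest difference was 0.10 (adjusted p = 0.4996). For glutamate alone, in Veh-Glut against Veh-Veh, it was -0.25 (limma adjusted p = 0.124). The difference between the glutamate effects was 0.37 for Mest (limma adjusted p = 0.184). H19, the imprinted neighbour of Igf2, was listed at 0 in all libraries, and Igf2bp1 and Dlk1 were also under the filter. Of 7 matrix partners of IGFBP5, 5 were tested and Thbs1, which encodes the matrix glycoprotein thrombospondin 1, was called higher in both inhibitor comparisons. Thbs1 had 263, 334 and 436 normalized counts in TFBTBOA-Glut, against 96.2, 121 and 85.3 in Veh-Glut (log2 difference 1.75, SE 0.225, limma adjusted p = 0.00336). It had 455, 258 and 321 in TFBTBOA-Veh, against 125, 151 and 163 in Veh-Veh (1.20, SE 0.214, adjusted p = 0.0226). Vtn was under the filter. In the glutamate comparisons and the interaction limma called 0 genes of the 5 lists.

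The genes whose log2 values followed Igfbp5 most closely were ranked by Pearson's r over the 12 libraries among 14249 genes, as a description. The libraries fall into a set with and a set without the inhibitor, which alone gives any gene that differs between them a high r. Ctgf, a secreted matricellular protein with an IGF-binding-like domain, came first with r = 0.988. The next were Tgfbr2 (0.979), a receptor for TGF-beta, Ptrf (0.978), which encodes the caveolar coat protein cavin-1, Vwa1 (0.977), a matrix protein, and Kdelr3 (0.977), a retrieval receptor of the early secretory path. Rgl1, Trp53i11, Rflnb, Ppp1r16b and Rhoj completed the 10, down to 0.962. By rank, Spearman's rho of these 10 with Igfbp5 was 0.706 to 0.909, and 5 of them were among the 100 genes of highest rho. After group means were removed, r ran from -0.25 for Ctgf to 0.79 for Trp53i11.

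Ctgf had 1019, 868 and 834 normalized counts in TFBTBOA-Glut, against 167, 201 and 192 in Veh-Glut, and 1052, 900.4 and 978 in TFBTBOA-Veh, against 217, 219.5 and 226 in Veh-Veh. As for Igfbp5, all 6 libraries with the inhibitor lay far above the 6 without, where 2.55% of all genes tested were higher without overlap. Adamts1 and Thbs1 had an r of 0.937 and 0.922 with Igfbp5. The members themselves followed it less closely: r was 0.66 for its genomic neighbour Igfbp2, 0.65 for Igf1r, 0.63 for Igf2r, 0.36 for Igfbp3 and 0.30 for Igfbp4. The lowest values over all genes were those of Pcdh10 (-0.967), Rcc1 (-0.958), Smc2 (-0.952), Mtbp (-0.941) and Sowahc (-0.934). Rcc1 and Smc2 encode proteins of chromatin and mitosis, and Pcdh10 is a protocadherin.

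**Figure D4:**
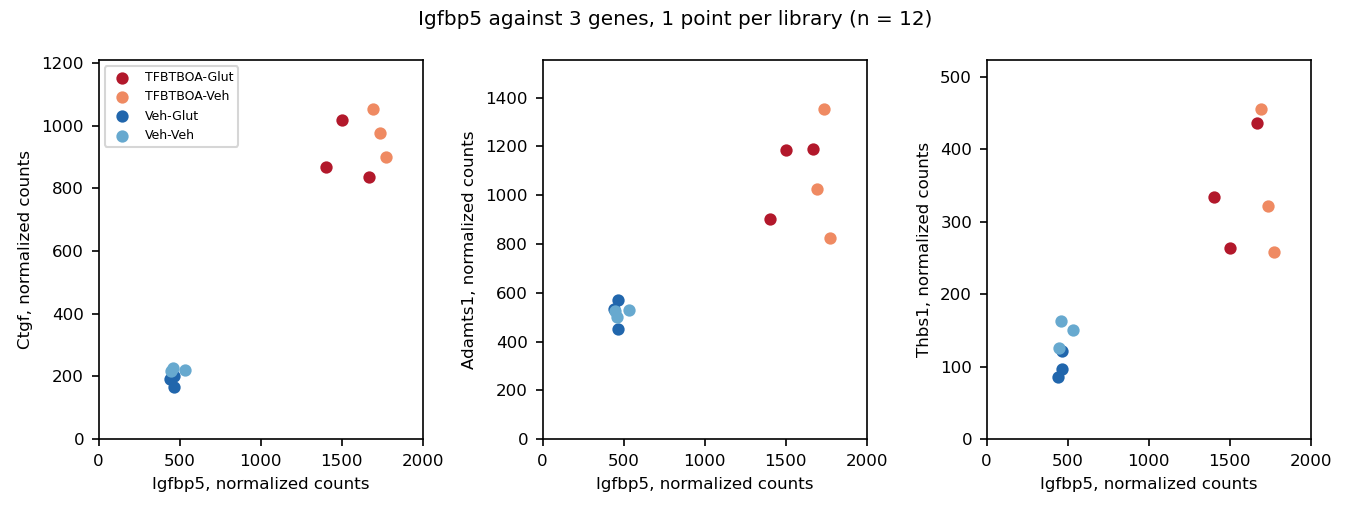
Igfbp5 (x axis) against Ctgf, Adamts1 and Thbs1 (y axes) in normalized counts, a point for each of the 12 libraries, coloured by group. In each panel the libraries with the inhibitor lie to the right, at 1402 to 1775 Igfbp5 counts, and above all those without it.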

How the data were processed

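Bulk RNA-seq libraries of 12 wells of cultured DG NSCs, 3 in each of 4 treatment groups, were grouped by their labels. The authors trimmed reads, removed ribosomal, mitochondrial and PhiX reads, aligned with HISAT2 2.0.6, counted reads per gene with featureCounts and divided each library by its size factor, so what was deposited is a signal, the normalized count of each gene in each library. The methods give GRCm38 as the build and the submitters' notes GRCh38. Counting is stated as stranded, while the kit does not mark strand.

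Values were taken to log2 after adding 1, and the 14266 genes averaging 10 or more were kept, among them 6 of the 9 members. limma 3.58.1 under R 4.3.3, two-sided and with a variance trend, was fitted to the 6 libraries of each pair of groups, and the difference between the glutamate effects on all 12. P-values were adjusted by Benjamini-Hochberg over all genes tested, with a threshold of 0.05. A log2 difference on this scale understates the change of low genes. Levels per kb used the union of exons of each gene in GENCODE M21, which matched 9 of 9 members, and promoter sequences came from RefSeq for GRCm38.p6, which also matched 9 of 9.

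Dividing by the value of 1 read gave whole numbers, with a tolerance of 0.05, for 100% of values in 10 libraries. The remaining 2, TFBTBOA-Veh replicates 2 and 3, were left out of count tests. On these reads edgeR 4.0.16 called 174 genes higher and 123 lower in TFBTBOA-Glut against Veh-Glut and 19 higher and 4 lower in Veh-Glut against Veh-Veh, where limma called 175 and 136, and 19 and 4. DESeq2 1.42.0 called 428 and 434, and 102 and 58. The limma fit was tested on simulated data.

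The members and the gene lists were chosen with earlier results of these data known. Named genes are all 9 members, list genes past the threshold in any comparison or under the filter, and the 10 genes of highest and 5 of lowest r with Igfbp5; Igfbp7, Airn and the cell type markers are also named. Grb10 stands in 2 lists, and 1 list gene is not reported here. Alternatives were pseudocounts of 0.5 and 5, no filter or a minimum mean of 50, TMM scaling, 1 fit over all libraries, the replicate number as a block, count tests, and the removal of single libraries.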

Additional observations from a re-analysis of the deposited data

How the results depend on the processing

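With no filter on low genes, 0 relatives of Igfbp5 in place of 1 were called in TFBTBOA-Glut against Veh-Glut, and with DESeq2 there were 2. With a library left out this count ran from 0 to 2. In Veh-Glut against Veh-Veh it ran from 0 to 1, and in the other comparisons it was 0. The labels number the replicates without saying whether wells of the same number were handled together. The column headers number the libraries in order of replicate, with the 4 groups in turn within each replicate. Deviations from group means had a median r of 0.025 (-0.04 to 0.08, 18 pairs) between same-numbered wells. Between wells of different number it was -0.020 (-0.11 to 0.08, 36 pairs). These ranges overlap and cannot decide whether the wells were paired. The replicate block gave 1 member in place of 0 in TFBTBOA-Veh against Veh-Veh, Igfbp2 at a limma adjusted p of 0.00347, and changed no other member's call. Log2 differences that were not called changed sign with a library left out, running from -0.15 to 0.23 for Igfbp3 and -0.043 to 0.032 for Igfbp4 in TFBTBOA-Veh against Veh-Veh, from -0.16 to 0.0094 for Igf2r and -0.11 to 0.023 for Igfbp5 in Veh-Glut against Veh-Veh, from -0.024 to 0.61 for Igfbp3 and -0.036 to 0.18 for Igf1r in TFBTBOA-Glut against TFBTBOA-Veh, and from -0.14 to 0.052 for Igfbp2 in the difference between the glutamate effects. The cause of these changes was not tested. The Igfbp5 difference ran from 1.66 to 1.79 in TFBTBOA-Glut against Veh-Glut and from 1.81 to 1.94 in TFBTBOA-Veh against Veh-Veh. Pseudocounts, TMM scaling, a single fit over all libraries, a minimum mean of 50 and edgeR changed no member's call. Depth limits Igf1, Igf2 and Igfbp6.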
